A study of Homo sapiens with 36 samples.

Results

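The clustered protocadherins are a family of cell adhesion genes arrayed in 3 neighbouring groups, alpha, beta and gamma, on human chromosome 5. Members were taken as the protein-coding genes of GENCODE release 44 on this chromosome whose symbols begin with PCDHA, PCDHB or PCDHG. There were 53 of them among 20033 protein-coding genes, namely 15 of the alpha, 16 of the beta and 22 of the gamma group. All 53 lie on the plus strand, within chr5:140786136-141512977 of hg38, a stretch of 726.8 kb.

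Chromatin immunoprecipitation followed by sequencing (ChIP-seq) had been performed on 2 human cell lines, A549 (lung adenocarcinoma) and BEAS-2B (B2B, bronchial epithelium without cancer). The labels name no treatment for either line. Both lines were profiled for H3K4me3 (a histone mark of promoters), H3K27ac (a mark of active promoters and enhancers), RNA polymerase II (pol II), the Mediator subunit Med1, and the AP-1 proteins Jun, JunB and JunD. For the insulator protein CTCF and the cohesin subunit Rad21, peak lists of B2B were used, and these proteins were not analysed here in A549. Each line stands for 1 tumor or 1 immortalized culture, so that differences between them cannot be told apart from differences between any pair of lines.

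In vertebrates these genes are best known from neurons, where each cell displays its own combination of protocadherin isoforms and uses it to recognize its own branches. An alpha or gamma transcript starts at the promoter of 1 variable exon, which encodes the extracellular part, and is spliced to constant exons shared by the whole group. The beta genes lack such constant exons. Most promoters carry a conserved element, and CTCF and cohesin are known to bind promoters and enhancers of the cluster and to bring them together. The C-type members (PCDHAC1, PCDHAC2, PCDHGC3, PCDHGC4 and PCDHGC5) stand at the ends of the alpha and gamma arrays and are less subject to this choice among promoters.

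Peaks were available as 16 lists, 7 of A549 and 9 of B2B, with 8597 to 61368 peaks each. Each list was called on 2 replicates pooled by the authors, so no replicate error can be given and no test between the lines was possible. A member was counted when a peak reached to within 1 kb of its start, the 5′ end of the gene. Shares are given with Wilson 95% intervals, which cover counting error only and treat neighbouring genes as independent. As background, the same count was made for the 12573 protein-coding genes on chromosomes 1 to 12, which all the lists cover. The fold enrichment of a peak is the deposited ratio of its summit to the local background, and it was compared only within a list.

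At member starts, A549 and B2B lists differed in extent. At least 1 of the 16 lists had a peak at 46 of the 53 members. The same share over all genes was not computed, so this count is a description only. Those with peaks of the most lists were PCDHGC3 with 9, PCDHAC1 with 8, PCDHB2 with 7 and PCDHAC2 with 6. The 7 members without any peak were PCDHB4, PCDHB15, PCDHGA3, PCDHGA8, PCDHGB6, PCDHGC4 and PCDHGC5.

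**Figure D1:**
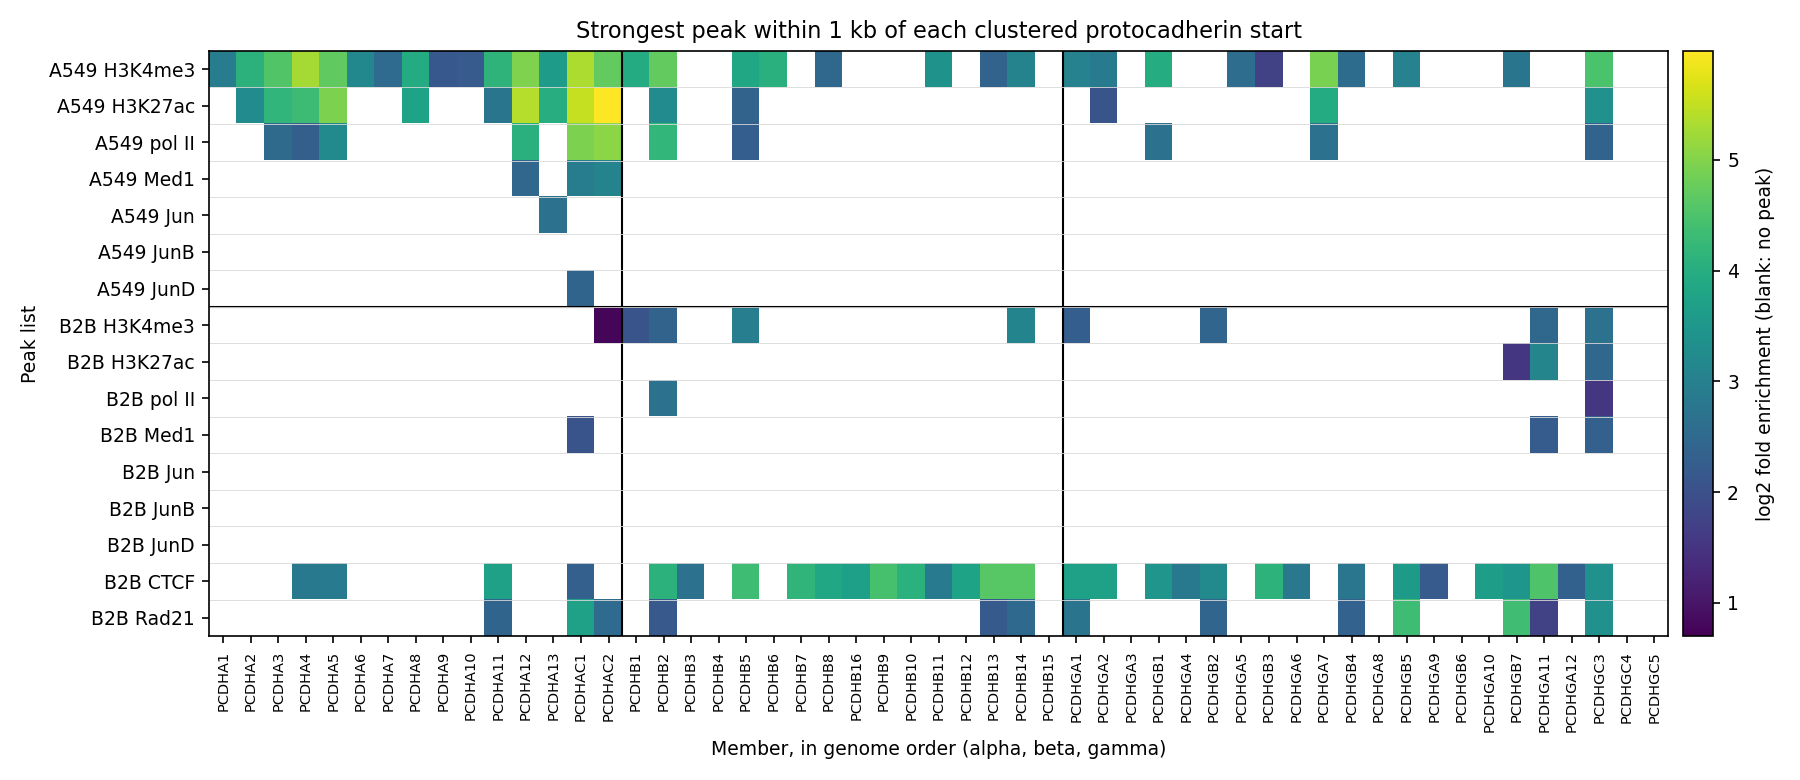
Strongest peak within 1 kb of the start of each of the 53 members (columns, in genome order, with lines between the alpha, beta and gamma groups) in each of the 16 lists (rows). Color gives the log2 fold enrichment within that list and blank cells have no peak; the A549 H3K4me3 row is filled across all 15 alpha members, while the B2B CTCF row is filled mainly across the beta and gamma members.

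H3K4me3 marked 33 of the 53 members in A549 (62.3%, interval 48.81 to 74.06%) and 9 in B2B (17.0%, 9.2 to 29.23%). Over all genes the shares were 66.6% in A549 and 56.0% in B2B. The A549 share of the members was thus close to that of other genes, whereas the interval of the B2B share lay below it. Side by side, 7 members were marked in both lines, 26 in A549 alone, 2 in B2B alone and 18 in neither. Of all genes, 54.8% were marked in both, 11.8% in A549 alone, 1.24% in B2B alone and 32.2% in neither.

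The alpha group carried most of this difference. All 15 alpha members had H3K4me3 in A549, with fold enrichments from 4.441 at PCDHA9 to 40.28 at PCDHAC1 and a median of 17.03. At PCDHA9 and PCDHA11 the summits lay 980 and 984 bp from the gene start, and neither was counted at a distance of 500 bp. From the nearest annotated transcript start of the gene these summits lay 370 and 210 bp. In B2B the only alpha member with a peak was PCDHAC2, and its fold enrichment was 1.701, with a deposited −log10 q of 2.561, near the limit of 2 at which the lists end. Of the beta members, 8 of 16 were marked in A549 and 4 in B2B. Of the gamma members, 10 of 22 were marked in A549 and 4 in B2B.

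Members marked in A549 alone were led by PCDHAC1 (fold enrichment 40.28), PCDHA4 (38.78), PCDHA12 (31.19) and PCDHGA7 (30.22). They were followed by PCDHA5 (25.79), PCDHA3 (23.34), PCDHA11 (17.48), PCDHA2 (17.03), PCDHB6 (16.7) and PCDHGB1 (15.66). Thus 7 of these 10 belonged to the alpha group. The 2 members marked in B2B alone were PCDHGB2 (5.333) and PCDHGA11 (5.498). The 7 marked in both lines were PCDHAC2, PCDHB1, PCDHB2, PCDHB5, PCDHB14, PCDHGA1 and PCDHGC3. PCDHB14 had a fold enrichment of 8.42 in B2B, the highest of the members in that list, and of 8.415 in A549.

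The H3K4me3 peaks of the members were narrow. In A549 their median width was 623 bp against 2214 bp over all genes with a peak, and their median fold enrichment was 12.19 against 35.26. In B2B the median width was 443 bp against 1013 bp, but the median fold enrichment was 5.333 against 3.655. Summits lay downstream of the start at 32 of 33 members in A549 and at 9 of 9 in B2B, with medians of 215 bp and 147 bp. Over all genes with a peak, 6664 of 8374 summits in A549 and 5026 of 7041 in B2B lay downstream, with medians of 225 bp and 214 bp.

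**Figure D2:**
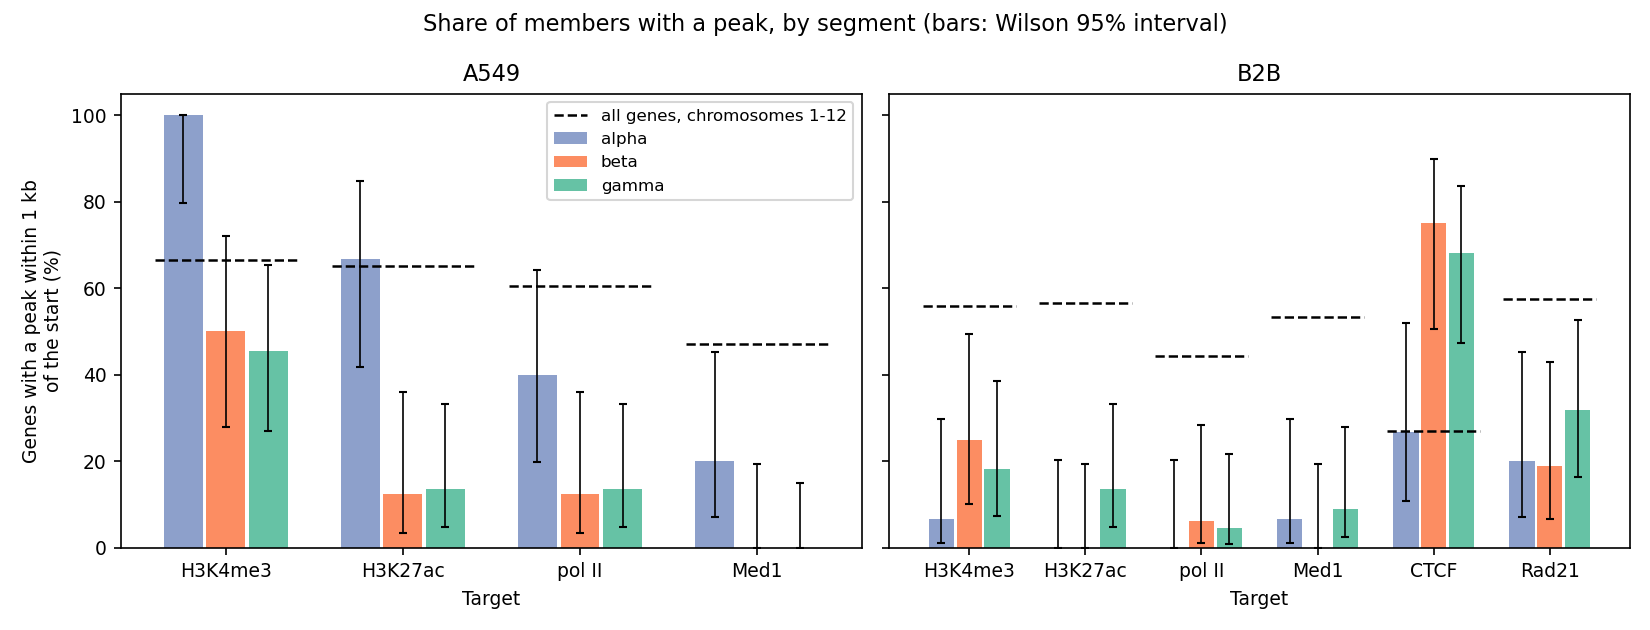
Share of members with a peak within 1 kb of the start, in percent, for each target in A549 (left) and B2B (right), separately for the alpha, beta and gamma groups. Error bars are Wilson 95% intervals and dashed lines give the share of all protein-coding genes on chromosomes 1 to 12; alpha reaches 100% for A549 H3K4me3, and beta (75.0%) and gamma (68.2%) stand above the dashed line (27.1%) for B2B CTCF.

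The caller's local background at H3K4me3 peaks differed between the lists. It was solved from the fold enrichment and p-value of each peak and is given relative to the 10th percentile of its own list. In A549 H3K4me3 its median was 1.413 at the members and 1.412 over all genes with a peak. In B2B H3K4me3 it was 2.5 at the members and 11.11 over all genes. The part of this background in the B2B shares was not tested, since members without a peak have no deposited value. With the H3K4me3 lists cut to equal length on chromosome 5, 25 members were marked in A549 alone and 2 in B2B alone.

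H3K27ac, pol II and Med1 were found at fewer members. In A549, 15 members (28.3%, 17.97 to 41.57%) had an H3K27ac peak, against 65.1% of all genes. Pol II was found at 11 members (20.8%, 12 to 33.46%) against 60.6%, and Med1 at 3 members (5.66%, 1.944 to 15.37%) against 47.1%. All of these A549 members also had H3K4me3, and none of the 20 members without H3K4me3 had one of the other 3 marks. Among the 33 members with H3K4me3, 45.5% had H3K27ac, 33.3% pol II and 9.09% Med1. Among all genes with H3K4me3 in A549 these shares were 95.6%, 89.2% and 70.5%. Most members with H3K4me3 therefore lacked a pol II peak, unlike most genes.

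Within A549, pol II and H3K27ac were again found most often in the alpha group. H3K27ac marked 10 of 15 alpha, 2 of 16 beta and 3 of 22 gamma members, and pol II marked 6, 2 and 3 of them. The alpha members with pol II were PCDHA3 (fold enrichment 5.736), PCDHA4 (4.901), PCDHA5 (9.201), PCDHA12 (16.59), PCDHAC1 (30.53) and PCDHAC2 (33.68). Some alpha summits lay nearer to the start of a long noncoding RNA (lncRNA) gene than to the member's gene start. At PCDHA12 the pol II summit lay at 570 bp, and -50 bp from ENSG00000278915. At PCDHA13, H3K27ac (294 bp) and H3K4me3 (400 bp) lay -224 and -118 bp from ENSG00000278901. At PCDHA6, H3K4me3 (407 bp) lay -184 bp from ENSG00000279726. To which start such peaks belong was not tested. The other members with pol II were PCDHB2 (18.39), PCDHB5 (4.825), PCDHGB1 (6.343), PCDHGA7 (6.326) and PCDHGC3 (5.207). The strongest of these peaks were at the 2 C-type alpha members, whereas 7 of the 11 were below a fold enrichment of 10, and the median over all genes with pol II was 45.92.

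In B2B the same marks were nearly absent. H3K27ac was found at 3 members (5.66%, 1.944 to 15.37%), PCDHGB7 (2.88), PCDHGA11 (8.55) and PCDHGC3 (5.631), against 56.6% of all genes. Pol II was found at PCDHB2 (6.439) and PCDHGC3 (2.911), that is 3.77% of the members (1.041 to 12.75%) against 44.3% of all genes. Med1 was found at PCDHAC1 (4.22), PCDHGA11 (4.747) and PCDHGC3 (5.005), 5.66% of the members against 53.3% of all genes. With the Med1 lists cut to equal length, PCDHGC3 was the only B2B member left. Of the 9 members with H3K4me3 in B2B, 2 had H3K27ac, 2 pol II and 2 Med1, whereas over all genes with H3K4me3 these shares were 94.3%, 77.4% and 89.6%. Local backgrounds, relative to the 10th percentile of each list, had medians of 5.925 (H3K27ac), 6.709 (pol II) and 1.487 (Med1) at members with a peak. Over all genes with a peak they were 10.37, 18.45 and 1.671, and their part in these counts was not tested.

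The 5 C-type members did not behave alike. PCDHAC1 and PCDHAC2 carried all 4 promoter marks in A549, with H3K27ac at 45.95 and 63.29, the highest of all members, and Med1 at 7.611 and 8.369. In B2B, PCDHAC1 had CTCF (5.019), Rad21 (13.27) and Med1 (4.22) but no H3K4me3, and PCDHAC2 had Rad21 (5.815) beside the weak H3K4me3 peak. PCDHGC3 was the only member with H3K4me3, H3K27ac and pol II in both lines. Its H3K4me3 peak had a fold enrichment of 22.56 in A549 and 6.389 in B2B, and CTCF (10.3) and Rad21 (10.34) were present in B2B. PCDHGC4 and PCDHGC5 had no peak in any list.

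CTCF in B2B showed a different distribution. A peak was found at 31 of the 53 members (58.5%, 45.09 to 70.74%), against 27.1% of all genes. By group the counts were 4 of 15 alpha (26.7%, 10.9 to 51.95%), 12 of 16 beta (75.0%, 50.5 to 89.82%) and 15 of 22 gamma members (68.2%, 47.32 to 83.64%). The intervals of the beta and gamma shares lay above the share of all genes, and that of the alpha share included it. The highest fold enrichments were at PCDHB13 (24.58), PCDHB14 (24.46), PCDHGA11 (22.98), PCDHB9 (21.8) and PCDHB5 (20.24). The median over the members was 12.49, against 5.71 over all genes with a CTCF peak. The local background under these values, relative to the 10th percentile of the list, had a median of 3.128 at the members and 11.57 over all genes, and its part in the higher fold enrichment was not tested.

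The CTCF peaks took a fixed place at beta and gamma starts. Taking the strongest peak of each member, all 12 beta and all 15 gamma summits lay within 100 bp of the start, from -87 to 25 bp in beta and from -77 to 48 bp in gamma, where negative values are upstream. PCDHGA11 had a further, weaker CTCF peak (6.953) with its summit 467 bp downstream. Over all genes with a CTCF peak, 1033 of 3411 summits lay that close. At the 4 alpha members the summits lay from 330 to 711 bp downstream of the start. For PCDHA4 (616 bp), PCDHA5 (610 bp) and PCDHAC1 (330 bp) that is within an exon of the gene. PCDHA11 differed, since its peak at 711 bp lies -63 bp from another annotated transcript start of the gene, and a further CTCF peak of fold enrichment 6.23 lies 1386 bp downstream, in an exon.

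**Figure D3:**
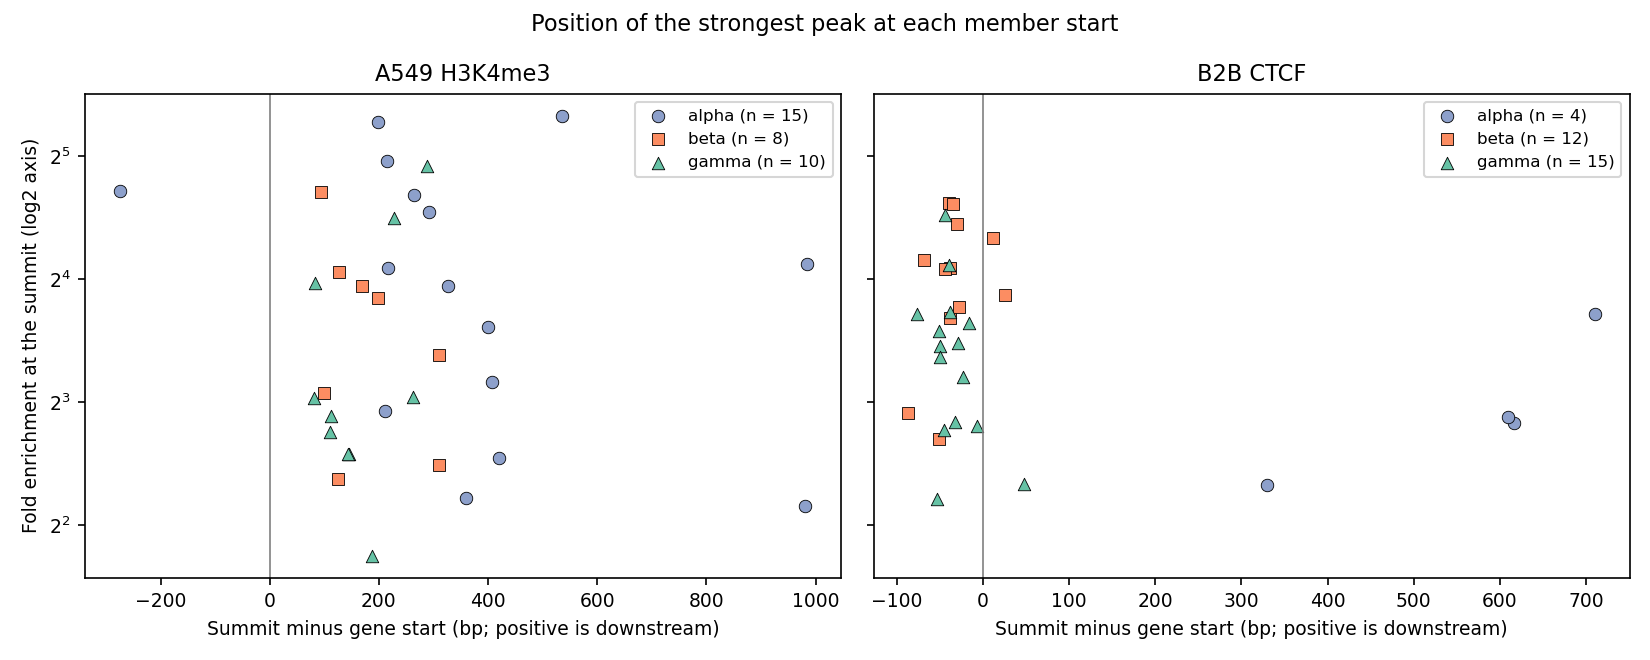
Position of the strongest peak at each member start for A549 H3K4me3 (left, 33 members) and B2B CTCF (right, 31 members); the x axis is the summit minus the gene start in bp and the y axis the fold enrichment on a log2 axis. Beta and gamma CTCF summits stand between -87 and 48 bp, the 4 alpha CTCF summits stand at 330 bp or farther downstream, and H3K4me3 summits lie mostly downstream, with a median of 215 bp.

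Promoter sequences are shown because each group shared a different word at its starts and CTCF peaks covered some of these words. RefSeq promoters (GRCh38.p14, 250 bases before to 50 after the start) were found for 47 members, and those of PCDHA3, PCDHA13, PCDHB6, PCDHB11, PCDHGA12 and PCDHGC5 were not in the table. The most common word of 10 letters was ATGATGTCGC in alpha (8 of 13 promoters), GGTGGCGCTG in beta (12 of 14) and GCGCCGCTGT in gamma (9 of 20), and none of these words occurred in another group. In alpha, 3 overlapping words were equally common and the first in the alphabet is given. Searched on both strands, the 3 words occurred in 0.0313%, 0.276% and 0.131% of the 35116 promoters of the table. The words were chosen from these promoters after other results were known, so their frequency in the cluster is a description. Capitals mark the word in each stretch of 30 bases below, all on the plus strand.
PCDHA4, chr5:140806979-140807008: tggagccacATGATGTCGCtctttaccaca
PCDHA8, chr5:140841130-140841159: tgaagccacATGATGTCGCtgtctaccaag
PCDHA12, chr5:140875244-140875273: atcagtcacATGATGTCGCtctacactcag
PCDHB4, chr5:141121725-141121754: aagacgcagGGTGGCGCTGcaggctaagtt
PCDHB5, chr5:141135181-141135210: aggacgcctGGTGGCGCTGcaggctaagag
PCDHB9, chr5:141187076-141187105: aagccacaaGGTGGCGCTGcagactgaaga
PCDHB13, chr5:141213867-141213896: aggacgcgtGGTGGCGCTGcaggataagaa
PCDHGA1, chr5:141330406-141330435: ggactgtggGCGCCGCTGTtcactaatctg
PCDHGB5, chr5:141397866-141397895: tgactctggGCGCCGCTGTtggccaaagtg
PCDHGA7, chr5:141382652-141382681: ggactcacaGCGCCGCTGTtcaccaaccag

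A B2B CTCF peak lay over the word at 10 of the 12 beta and 6 of the 9 gamma promoters that held it, and at none of the 8 alpha promoters. Of the stretches shown, those of PCDHB5, PCDHB9, PCDHB13, PCDHGA1 and PCDHGB5 lay under a CTCF peak. Those of PCDHB4 and PCDHGA7 did not, although they hold the same 10 letters. In A549, H3K4me3 was found at all 8 alpha, 4 of the 12 beta and 5 of the 9 gamma members with the word. Since all 15 alpha members had H3K4me3 in A549, with or without the word, the alpha count says nothing of the word. CTCF was found at 12 of all 16 beta and 15 of all 22 gamma members, and A549 H3K4me3 at 8 and 10. The gamma CTCF count with the word was thus close to that of its group. CTCF at promoters outside the cluster that hold these words was not counted.

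The CTCF core motif, written over 12 positions, was searched within 50 bp of each summit on both strands with up to 2 mismatches. The end of this core can overlap the beginning of the beta word, as it does at PCDHB9. A match was found at 15 of the 40 CTCF peaks of the cluster (37.5%, 24.22 to 52.97%), against 59.5% of all CTCF peaks. The share was 9 of 32 at peaks within 1 kb of a member start and 6 of 8 elsewhere in the cluster. In windows 2 kb to each side of the cluster peaks the share was 31.2%, against 6.58% around all CTCF peaks. Beside the peaks near member starts it was 37.5% (24 of 64 windows). At the summits of these peaks it was 28.1%, so that a match there was no more frequent than beside them. With a side share so far above the 6.58% around all CTCF peaks, this comparison cannot tell whether the core is absent at these starts. Beside the peaks elsewhere in the cluster the share was 6.25% (1 of 16 windows), below the 75.0% at their summits. Among the peaks with a match at member starts, 6 matched on the plus strand, the strand of the genes, and 3 on the minus strand. Elsewhere in the cluster 2 matched on the plus and 4 on the minus strand.

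Sites with at most 1 mismatch are shown because they are the closest matches to the core in the cluster. Each is written 5′ to 3′ on the strand of the match, from hg38, with the 12 core positions in capitals.
PCDHA4 exon, chr5:140807635-140807664, plus strand: tctcggtttCCACTAGAGGGCgcctcggat
PCDHA5 exon, chr5:140822220-140822249, plus strand: tcgcggtttCCGCTAGAGGGCgcgtcggat
PCDHA11 exon, chr5:140869551-140869580, plus strand: tcgcgttttCCACTAGAGGGAgcttctgat
PCDHB9 promoter, chr5:141187070-141187099, plus strand: tgttggaagCCACAAGGTGGCgctgcagac
Between alpha and beta, chr5:141040354-141040383, minus strand: gatctttaaCCAGCAGAGGGCgagtcgact
Between alpha and beta, chr5:141041363-141041392, minus strand: cctcatctgCCACCAGGTGGCaggtggatc
Shared last exon of gamma, chr5:141512494-141512523, minus strand: aggctatggCCACTAGGGGGCgcactgggg

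The 4 sites at PCDHA4, PCDHA5, PCDHA11 and PCDHB9 matched on the plus strand and the other 3 on the minus strand, but with 2 mismatches allowed, PCDHB5, PCDHB8 and PCDHB14 matched on the minus strand at their starts. The PCDHA11 site lies more than 1 kb from the gene start and was counted above as elsewhere in the cluster. The fold enrichments of CTCF at the 3 exonic alpha sites were 7.124, 7.375 and 6.23, below the 16.46 and 27.71 of the sites between alpha and beta. The site in the last gamma exon had a fold enrichment of 7.673. Reads from near-identical members limit the values at some genes. Of the words of 50 bases within 1 kb of a member start, some occurred again in the region at 27 of the 53 members, with a median share of 0.154% and a maximum of 38.7% at PCDHB8 and PCDHB13. In alpha, 13 of 15 members were affected, with a median of 4.25% and a maximum of 25.4% at PCDHA7. Within CTCF peaks the repeated share was 53.2% at PCDHB8, 52.4% at PCDHB13, 28.6% at PCDHGB4 and 17.5% at PCDHGB5. Peaks at these 4 members are therefore uncertain as to the gene they belong to. The repeated share within H3K4me3 peaks is not given here. Such peaks at other members with repeated words, as PCDHA7, PCDHA8 (12.4%), PCDHA6 (12.3%) and PCDHGB7 (11.9%), may be uncertain as well.

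Rad21, which marks cohesin, followed CTCF at fewer starts. It was found at 13 members (24.5%, 14.93 to 37.57%) against 57.4% of all genes, with 3 in alpha, 3 in beta and 7 in gamma. The highest fold enrichments were at PCDHGB7 (20.5), PCDHGB5 (20.4), PCDHAC1 (13.27) and PCDHGC3 (10.34). Of these 13 members, 12 also had CTCF, the exception being PCDHAC2. Conversely, 12 of the 31 members with CTCF had Rad21 (38.7%), while over all genes with CTCF the share was 84.0%. These shares count both peaks within 1 kb of a start, whether or not they overlap. The sets also differed in H3K4me3 of B2B, found at 7 of the 31 members and 2809 of the 3411 genes with CTCF. The part of H3K4me3 in the Rad21 shares was not tested. Rad21 at PCDHGA11 overlapped its weaker CTCF peak (6.953) and not the one at the start (22.98). Relative to the 10th percentile of the list, the local background of Rad21 peaks had a median of 5.196 at the members. Over all genes it was 22.08, and its part in these shares was not tested.

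Peak by peak, 14 of the 40 CTCF peaks of the cluster overlapped a Rad21 peak by at least 1 bp (35.0%, 22.13 to 50.49%), against 36.3% of all CTCF peaks. Of the 16 Rad21 peaks of the cluster, 14 overlapped CTCF (87.5%, 63.98 to 96.5%), against 57.0% of all Rad21 peaks. At a CTCF fold enrichment of 20 or more, 3 of 9 cluster peaks overlapped Rad21, and 62.0% of all CTCF peaks did. The shares were 33.3% in the cluster and 26.0% of all peaks at a fold enrichment below 10, and 37.5% and 38.1% from 10 to 20. Strong CTCF peaks without Rad21 included those of PCDHB9 and PCDHB5.

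CTCF in B2B was next set against the promoter marks of both lines. Over all genes, CTCF was found at 36.6% of those with H3K4me3 in A549 and at 8.22% of those without. Among the members it was found at 18 of 33 with A549 H3K4me3 (54.5%, 37.99 to 70.16%) and at 13 of 20 without (65.0%, 43.29 to 81.88%). The intervals of both member shares overlapped each other, and the share without H3K4me3 lay above that of all such genes. Within beta and gamma alone the counts were 14 of 18 and 13 of 20.

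For B2B H3K4me3 the member counts were 7 of 9 with the mark (77.8%, 45.26 to 93.68%) and 24 of 44 without (54.5%, 40.07 to 68.29%). Over all genes these shares were 39.9% and 10.9%. Of the 18 members with H3K4me3 in neither line, 11 had CTCF: PCDHB3, PCDHB7, PCDHB16, PCDHB9, PCDHB10, PCDHB12, PCDHGA4, PCDHGA6, PCDHGA9, PCDHGA10 and PCDHGA12. CTCF at these starts thus came without a promoter mark in either line, but the count was close to the 31 of 53 over all members. The CTCF share over all genes marked in neither line was not computed.

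Rad21 was set against the B2B promoter marks in the same way. H3K4me3 in B2B was found at 7 of the 13 members with Rad21 and at 2 of the 40 without, against 86.2% and 15.4% of all genes with and without Rad21. Of the 9 members with H3K4me3 in B2B, 7 had Rad21 and 7 had CTCF. Over all genes, 6217 of the 7041 with this mark had Rad21 and 2809 had CTCF. All 3 members with H3K27ac, all 3 with Med1 and both with pol II in B2B had Rad21 and CTCF. The shares over all genes with H3K27ac, Med1 or pol II were not computed, so whether this is particular to the members is unknown. These counts rest on few members, and with 1 pooled list for each target no test of the difference was possible.

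Outside the starts, the cluster held a set of elements with stronger peaks than most members. Across its 726.8 kb there were 38 H3K4me3 and 22 pol II peaks of A549, and 18 H3K4me3, 11 pol II, 40 CTCF and 16 Rad21 peaks of B2B. Within 1 kb of a member start lay 33, 14, 9, 3, 32 and 14 of them. In the same order, the cluster held 52.3, 30.3, 24.8, 15.1, 55 and 22 peaks per Mb. Over the whole of chromosome 5 the rates were 8.92, 13.5, 7.43, 8.21, 21.5 and 12.1. No list had a peak in the 50 kb before PCDHA1.

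**Figure D4:**
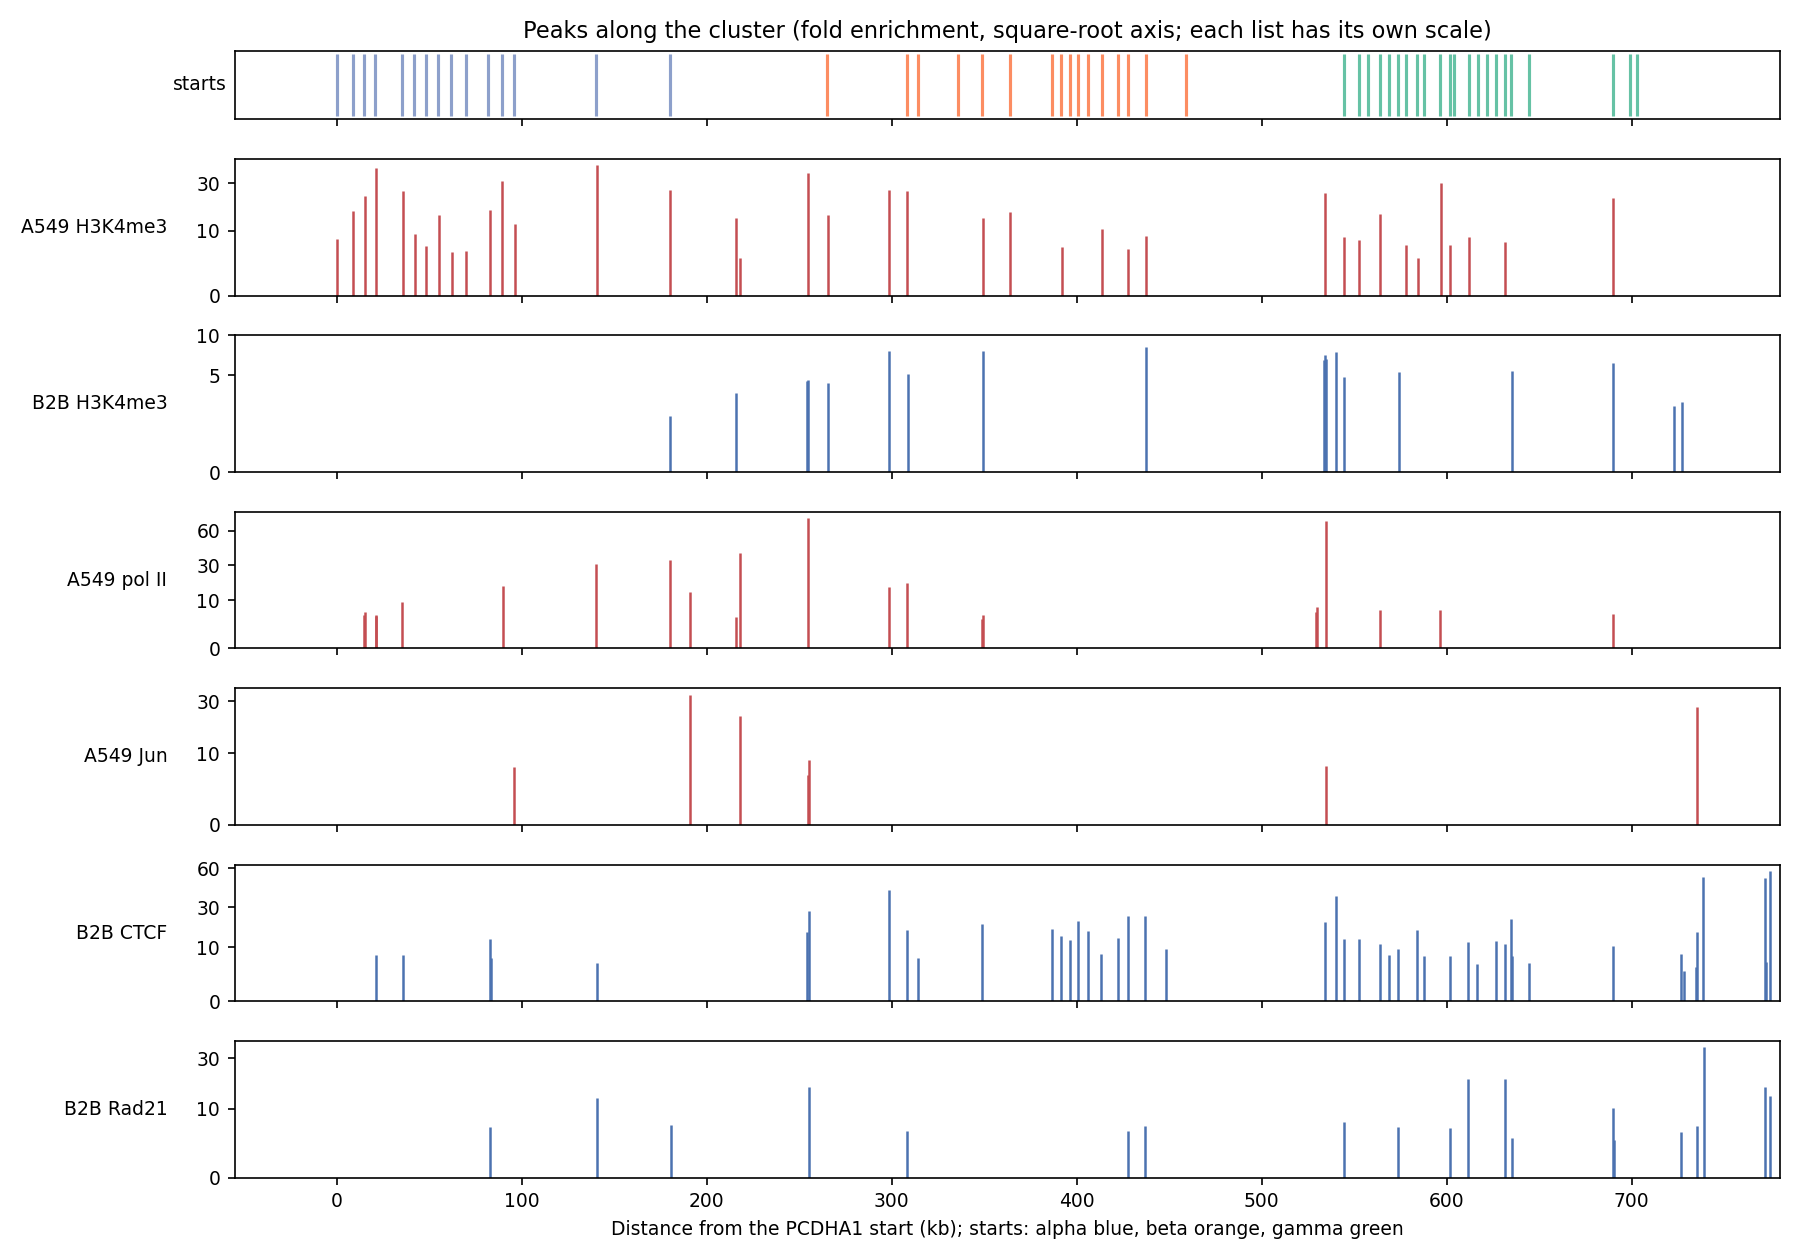
Peaks along the cluster and its flanks, with the distance of the summit from the PCDHA1 start in kb on the x axis and the fold enrichment on a square-root y axis, each list on its own scale; the top row marks member starts (alpha blue, beta orange, gamma green). A549 H3K4me3 runs through the alpha group, where B2B H3K4me3 has 2 peaks, and B2B CTCF is densest over beta and gamma.

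The strongest pol II peak of the cluster in A549, with a fold enrichment of 73.35, lay between alpha and beta at chr5:141039626-141041350, over the start of the lncRNA gene ENSG00000288892. H3K4me3 (35.67), H3K27ac (11.67), Med1 (6.334) and Jun (8.197) had A549 peaks there as well. In B2B the same place had 2 CTCF peaks (16.46 and 27.71), Rad21 (17.43), H3K4me3 (4.57) and pol II (5.333). The site thus combined promoter marks and insulator proteins. TAF7, a general transcription factor gene that lies between beta and gamma, had a pol II peak at its start in A549 (70.58) and in B2B (8.751), and CTCF in B2B (21.37). SLC25A2, a mitochondrial transporter gene next to it, had no peak of any list.

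The strongest CTCF peak of the cluster (41.62) lay at chr5:141084479-141084792, -10010 bp from the start of PCDHB2, in intergenic sequence. H3K4me3 was found beside it in both lines (26.32 in A549 and 7.879 in B2B), with pol II in A549 (16.36). The next strongest (37.77) lay at chr5:141326048-141326363, -4320 bp from PCDHGA1, at the start of the lncRNA gene ENSG00000272070, with H3K4me3 (7.661) and pol II (6.992) in B2B. Neither overlapped a Rad21 peak.

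AP-1 proteins were nearly absent from member starts. In A549, 2 members had a peak of Jun, JunB or JunD against 31.3% of all genes, namely PCDHA13 with Jun (6.483) and PCDHAC1 with JunD (5.313). In B2B no member had such a peak, against 8.62% of all genes. For each Jun-family protein alone, the shares of all genes were 25.5% (Jun), 21.2% (JunB) and 12.7% (JunD) in A549, and 8.58%, 1.01% and 0.31% in B2B.

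Of the 6 A549 Jun peaks of the cluster, 1 lay at PCDHA13, 2 at the lncRNA between alpha and beta (4.889 and 8.197), 1 at TAF7 (6.861) and 2, the strongest, in the alpha intron that follows PCDHAC2. At chr5:140976981-140977425, 10713 bp past its start, Jun had a fold enrichment of 33.26, with pol II (13.9) and Med1 (7.774). At chr5:141004067-141004573, 37926 bp past it, Jun (23.12), JunB (14.01), JunD (7.677), Med1 (11.46) and pol II (39.48) coincided. B2B had no peak of any list at either place. Past the gamma group, in an intron of DIAPH1, Jun had a peak in both lines (27.11 in A549 and 52.66 in B2B).

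The AP-1 word TGANTCA was searched on both strands within 50 bp of Jun summits. It was found at 51.0% of all A549 Jun peaks and in 3.3% of windows 2 kb to each side. In the cluster 2 of 6 A549 Jun peaks held it, at PCDHA13 and in the alpha intron, and the strongest Jun peak of the cluster did not. The 2 stretches are shown from hg38, plus strand, with the word in capitals, and no other motif searched here overlaps it.
PCDHA13 promoter, chr5:140882028-140882057: aatatgaagacTGAGTCAtacttacactta
Alpha intron, chr5:141004425-141004454: ggagtttaggcTGAGTCAtatagaaccagg

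At the gamma end the pattern between the lines turned around. B2B had H3K27ac (9.544), Med1 (4.763), pol II (5.093) and Jun (3.831) at chr5:141508483-141509627, 19881 bp past the PCDHGC5 start, in an intron. Just past the last gamma exon, B2B also had H3K27ac (8.594) and Med1 (9.03). A549 had no peak of any list at these places.

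Non-clustered protocadherins, which lie outside the cluster, were counted for comparison. H3K4me3 was found at 7 of 11 in A549 and at 7 of 11 in B2B, and CTCF at 2 of 11. The 2 with CTCF were PCDH1 and PCDH12, which lie on chromosome 5 near the gamma end of the cluster. Genes for regulators of the cluster (CTCF, cohesin subunits, NIPBL, MAU2, WAPL, SMCHD1, SETDB1 and DNMT3B) had H3K4me3 at 12 of 12 in both lines.

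Cell type markers were checked by H3K4me3 at their starts. Epithelial markers were marked at 5 of 6 in A549 and 4 of 6 in B2B, fibroblast markers at 3 of 6 and 4 of 6, and blood markers at 0 of 4 in both lines. KRT19 was not marked in either line. Neuronal markers, such as SNAP25 and STMN2, were marked at 10 of 10 in A549 and 3 of 10 in B2B, and had pol II at 4 and 2. In A549, SNAP25, STMN2, GAP43, NEUROD1 and ELAVL4 had H3K4me3 without a pol II peak, and so had SYP, which lies on the X chromosome, where the A549 pol II list holds no peak. The part of a wider extent of H3K4me3 in A549 in the counts above was not tested.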

How the data were processed

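Peak lists in narrowPeak format were read for 16 combinations of target and line. Per the methods of the study and the submitters' processing notes, the authors aligned reads to hg38 with Bowtie2 2.4.4, removed duplicates, merged replicates with SAMtools 1.13 and called peaks with MACS2 2.2.7.1; the options and the control are not given in the sources used here. The authors deposited for each peak a score (10 times −log10 q, rounded down), a fold enrichment (a ratio to local background), −log10 of p and q, and a summit offset. No values per replicate or per read were used, so that the depth of each sample is unknown here. The lists of A549 H3K27ac, Med1 and pol II and of B2B Med1 hold peaks on 13 to 20 chromosomes, and the background was therefore counted on chromosomes 1 to 12.

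Overlaps, shares and word searches were computed in Python 3.11.15 with NumPy 2.4.6, SciPy 1.17.1 and pysam 0.24.0, and tested on simulated data against bedtools 2.31.1. The members and lists were chosen with earlier results of these data known. All members were counted. Those named were the C-type members, the 10 with peaks of the most lists, the 5 with the highest CTCF, the 10 strongest with H3K4me3 in 1 line alone, TAF7 and SLC25A2; a few others were named after their values were seen. Alternatives were 500 bp and 3 kb distances, any transcript start, a −log10 q of at least 5, summits in place of peaks, lists of equal length, 50% reciprocal overlap and other motif limits.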

Additional observations from a re-analysis of the deposited data

How the results depend on the processing

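Counts were recomputed under 93 alternative values for 23 results, and 91 stayed within 1.5 times the reported count or, for shares, within its interval. With lists cut to equal length, members with Med1 in B2B fell from 3 to 1, since the shorter list holds fewer peaks. Allowing no more than 1 mismatch, the share of cluster CTCF peaks with a core motif was 17.5% instead of 37.5%. Over the alternatives for the A549 H3K4me3 count, members with a peak numbered 31 to 34, and for the B2B count 8 or 9. Alternatives for CTCF against H3K4me3 and for peaks across the cluster were added after seeing the data. No paired analysis was possible because each list pools both replicates, and for the same reason no replicate could be left out. The number of reads behind each list is unknown here, so a missing peak shows only that none was called.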
